A study of Homo sapiens with 8 samples.

Results

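The genes considered here were CIITA and 9 genes of MHC class II antigen presentation, namely CD74, HLA-DRA, HLA-DRB1, HLA-DPA1, HLA-DPB1, HLA-DQA1, HLA-DQB1, HLA-DMA and HLA-DMB. They were chosen by name, and all 10 were found among 20163 protein-coding genes annotated on hg19. A peak was assigned to a gene if its summit, the position of highest signal in the peak, lay in the gene body or within 20 kb of it. In this way 38 of 70833 peaks of AML1-ETO at 12 h, 63 of 105769 at 48 h, 14 of 28325 peaks of ETO2-GLIS2 at 12 h and 15 of 30096 at 48 h were assigned, with a peak near neighbouring members counted once.

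MHC class II molecules present peptides from endosomes to CD4+ T cells on B cells, dendritic cells, monocytes and macrophages. Each is a pair of an alpha and a beta chain (HLA-DR, HLA-DP or HLA-DQ) that is assembled with the invariant chain CD74 and loaded with peptide by HLA-DM in endosomes. Their promoters carry an X box and a Y box that are bound by the RFX complex, CREB and NF-Y. CIITA does not bind DNA by itself, is recruited to these factors and controls the transcription of the whole set, and it is itself transcribed from several promoters that are used in different cell types or in response to interferon-gamma.

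The libraries came from U937, a human monoblastic cell line. A retroviral, doxycycline-inducible construct expressed AML1-ETO (the Runt domain of AML1 joined to ETO) or ETO2-GLIS2 (ETO2 joined to the zinc fingers of GLIS2), each with an HA tag at the N-terminus and each in a line grown from a single cell, so fusion protein and clone cannot be told apart. Cells received doxycycline at 5 µg/ml for 12 or 48 h, and chromatin was precipitated with anti-HA beads. Each combination of fusion protein and time had 1 ChIP library with a peak list, and the 4 inputs had no list here, so no difference has a replicate check and no test was made. Peak lists carry no read totals. The study gives read totals, which differ between the libraries, but they were not used here, so no count of peaks is adjusted for depth. Intervals on shares are exact 95% Clopper-Pearson intervals and cover counting error only. They treat peaks as independent, although many of them lie at the same locus. Within each list the peak with the highest −log10 q has rank 1, and ranks are also given as a percent of the list. Fold is the enrichment of ChIP signal over local background at the summit.

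The sequences on which the results turn are the promoter of CD74 and the middle of the strongest peak of each fusion protein in an intron of CIITA. They are of GRCh37, the assembly of hg19, and run 5′ to 3′ on the strand of the gene. The promoter of CD74, which was bound by both fusion proteins, is shown from 250 bases before to 50 bases after the start of its canonical transcript (chr5:149792424-149792723, minus strand). A reversed match of ATTGG, the letters searched for the Y box, is in capitals. No X box was matched in this promoter.

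CD74 promoter: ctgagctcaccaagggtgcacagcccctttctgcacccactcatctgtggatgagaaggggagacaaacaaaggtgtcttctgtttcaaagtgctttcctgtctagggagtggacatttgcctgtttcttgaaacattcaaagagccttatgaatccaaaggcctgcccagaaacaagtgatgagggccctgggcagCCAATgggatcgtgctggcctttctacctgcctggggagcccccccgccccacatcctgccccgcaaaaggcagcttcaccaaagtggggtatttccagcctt

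In an intron of CIITA upstream of the start of its canonical transcript, the strongest summits of the fusion proteins lay in different places. The 121 bases around the ETO2-GLIS2 summit at 48 h (chr16:10962643-10962763, plus strand) are given first and those around the AML1-ETO summit at 48 h (chr16:10965129-10965249, plus strand) second, with Runt motifs (TGTGGT, or ACCACA on the other strand) and the E-box CAGCTG in capitals.

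CIITA intron, ETO2-GLIS2: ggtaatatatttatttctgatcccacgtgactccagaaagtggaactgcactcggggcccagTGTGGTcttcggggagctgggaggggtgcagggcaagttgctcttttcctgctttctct
CIITA intron, AML1-ETO: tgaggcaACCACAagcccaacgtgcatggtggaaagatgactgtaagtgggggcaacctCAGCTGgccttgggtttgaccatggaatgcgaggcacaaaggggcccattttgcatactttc

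To investigate which of the 10 genes were bound, genes with at least 1 assigned peak were counted. AML1-ETO had a peak at 3 of 10 genes at 12 h and 4 of 10 at 48 h, beside 77.6% and 80.3% of all protein-coding genes by the same rule. ETO2-GLIS2 had a peak at 6 of 10 genes at 12 h and 4 of 10 at 48 h, beside 66.4% and 66% of all protein-coding genes. The bound genes were CIITA, CD74, HLA-DMA and HLA-DMB, except that CD74 had no AML1-ETO peak at 12 h and that HLA-DPA1 and HLA-DPB1 shared a single weak ETO2-GLIS2 peak at 12 h. HLA-DRA, HLA-DRB1, HLA-DQA1 and HLA-DQB1 had no peak in any of the 4 lists. A summit within 1 kb of the start of any annotated transcript, called a promoter peak here, was present at 3 of 10 genes for AML1-ETO at 12 h and at 48 h, beside 54% and 59.8% of all protein-coding genes. For ETO2-GLIS2 it was present at 2 of 10 genes at 12 h and 3 of 10 at 48 h, beside 42.8% and 45.7%. At 48 h these were CD74, CIITA and HLA-DMA, the last through a peak at the start of the neighbouring gene BRD2. With the canonical start alone, 1 gene remained at 48 h.

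**Figure D1:**
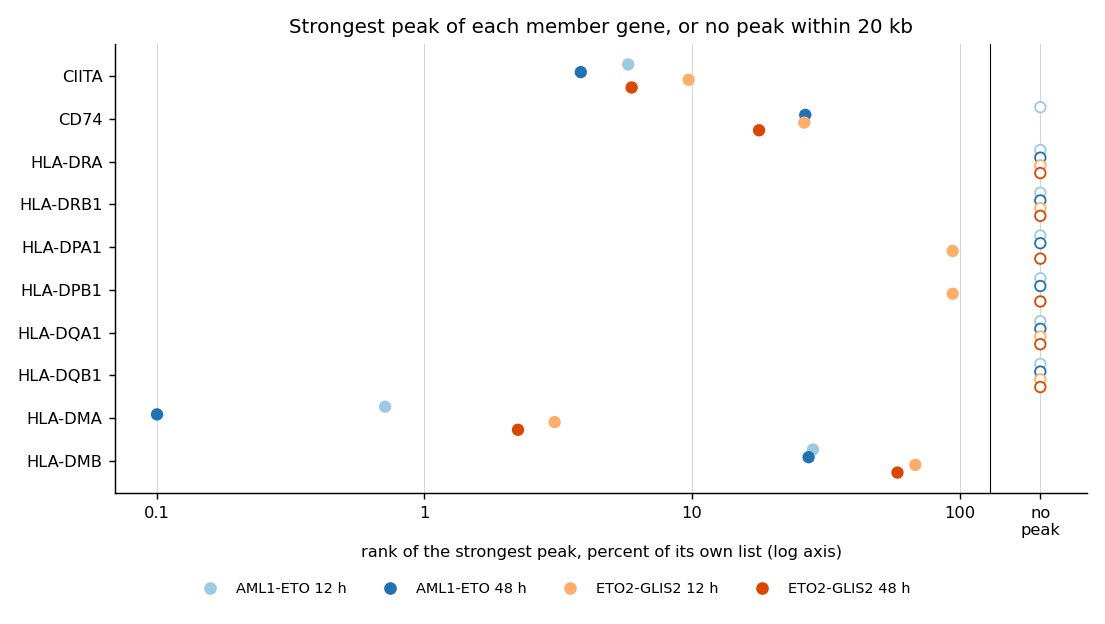
Rank of the strongest assigned peak of each gene, as a percent of its own list on a log axis (left is stronger), with open circles at the right for genes without a peak, in each of the 4 lists. Among the 10 genes the best rank was that of HLA-DMA (0.100% in the AML1-ETO list at 48 h), and 4 genes sit at no peak in every list.

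CIITA, the master regulator (chr16:10960079-11036878, plus strand, ENSG00000179583), carried most of the assigned AML1-ETO peaks. Of the assigned ETO2-GLIS2 peaks it carried 7 of 14 at 12 h and 7 of 15 at 48 h. AML1-ETO had 25 peaks at 12 h and 47 at 48 h in the gene and the 20 kb to either side, and ETO2-GLIS2 had 7 at each time. The median protein-coding gene had 3 and 5 AML1-ETO peaks and 1 ETO2-GLIS2 peak at either time. For AML1-ETO, 260 genes (1.29%) had more peaks than CIITA at 12 h and 123 (0.610%) at 48 h, and for ETO2-GLIS2 1168 (5.79%) and 1726 (8.56%) had more, without adjustment for gene length. The window of CIITA was 116.8 kb long, and AML1-ETO peaks covered 14.8% of it at 12 h and 34.5% at 48 h, while ETO2-GLIS2 peaks covered 3.29% and 3.90%.

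The CIITA peaks of AML1-ETO ranked near the middle of their lists, with a median of 50.3% at 12 h and 50.5% at 48 h. Their number depended on the length of the list. Of the 47 peaks at 48 h, 8 had a −log10 q of at least 10, beside 25266 of all 105769. Of the 25 at 12 h, 7 had one, beside 19232 of all 70833. When all lists were limited to their 28325 strongest peaks, CIITA had 10 AML1-ETO peaks at each time, beside 7 of ETO2-GLIS2 at each time. At this length 232 genes (1.15%) and 182 genes (0.903%) still had more AML1-ETO peaks than CIITA. After overlapping peaks of the 4 lists were joined, CIITA had 51 separate regions. Of these, 46 held AML1-ETO peaks alone, 5 held peaks of both fusion proteins and 0 held ETO2-GLIS2 peaks alone. Most AML1-ETO peaks lacked an ETO2-GLIS2 partner anywhere: 26.2% of the whole 12 h list and 17.8% of the longer 48 h list had one. For ETO2-GLIS2 the shares with a partner were 74.5% and 83.4%. These are shares of peaks within a time and not of joined regions. The region counts alone therefore do not set CIITA apart from other places.

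**Figure D2:**
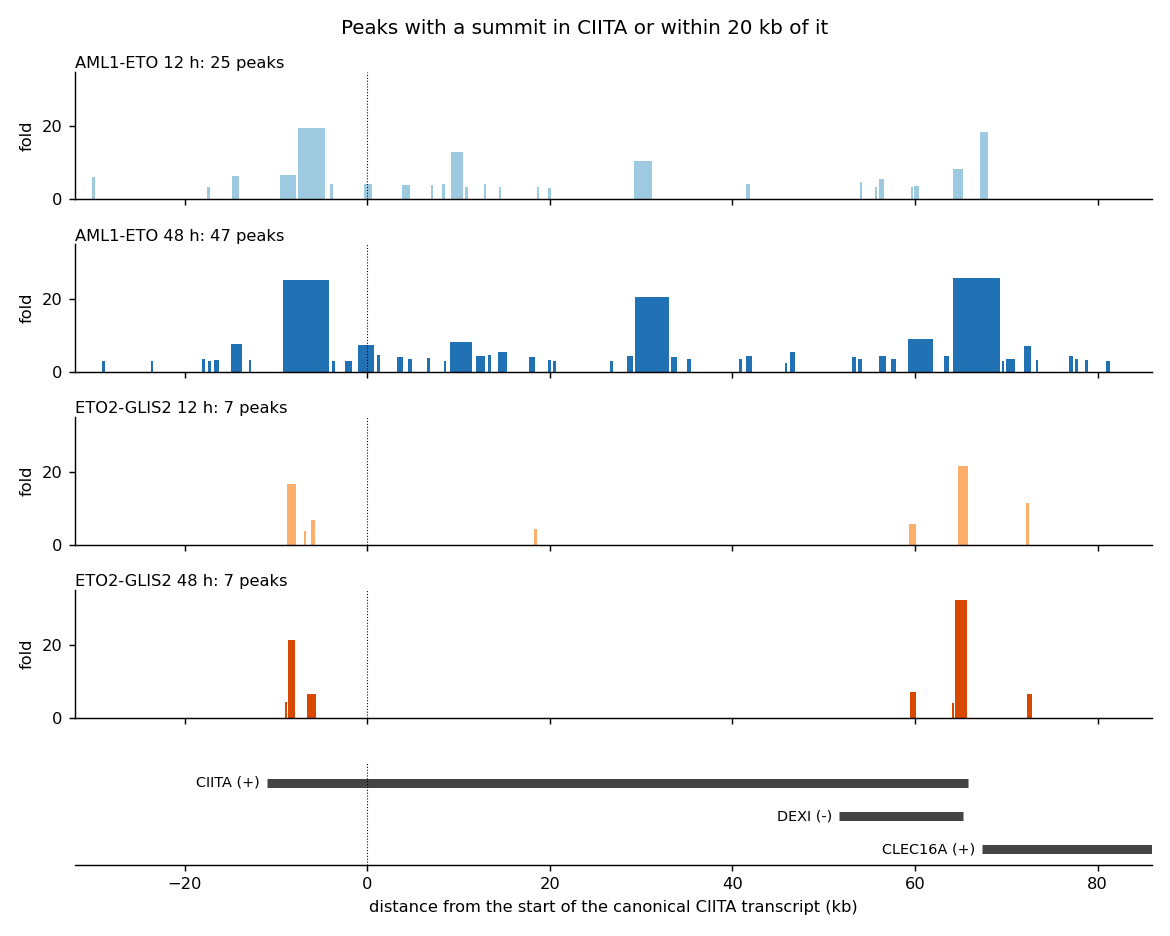
Peaks in CIITA and within 20 kb of it in the 4 lists, by distance in kb from the start of the canonical transcript (dotted line). Each bar spans a peak (narrow ones are drawn slightly wider than they are) and its height is the fold enrichment at the summit, which is not comparable in size between lists, and the bars at the bottom are the genes. AML1-ETO peaks are spread over the gene, and ETO2-GLIS2 peaks sit upstream of the canonical start and beyond 59 kb, apart from 1 at 12 h.

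Within an intron of CIITA the strongest site differed between the fusion proteins. This intron belongs to the 2 of 20 annotated transcripts with the most upstream starts and held peaks in all 4 lists. At 48 h AML1-ETO covered it with a single peak of 5096 bp (chr16:10961798-10966893), whose summit lay 5072 bp after the nearest CIITA start and 5870 bp before the canonical start, at a fold of 25.1 and rank 4251 (4.02%). At 12 h AML1-ETO had separate peaks there, a strong one of 2932 bp with its summit 9 bp away from that at 48 h (fold 19.4, rank 4088, 5.77%) and a weaker one upstream of 1702 bp (fold 6.68, rank 17398, 24.6%). In both AML1-ETO lists the downstream site was therefore the strongest place of the intron.

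For ETO2-GLIS2 the order of the sites was the reverse. The upstream site was the stronger at 12 h (chr16:10962294-10963199, fold 16.6, rank 3861, 13.6%) and at 48 h (chr16:10962385-10963110, fold 21.1, rank 2997, 9.96%), with summits 21 bp apart. The downstream site of ETO2-GLIS2 had a fold of 6.82 at 12 h (rank 9882, 34.9%) and 6.46 at 48 h (rank 12342, 41.01%). Within a list, the fold at the upstream site was 2.44 times that at the downstream site for ETO2-GLIS2 at 12 h and 3.27 times at 48 h, whereas for AML1-ETO at 12 h the downstream site had 2.91 times the fold of the upstream one. The downstream summits of the 4 lists lay within 71 bp of each other, and the upstream summits of the fusion proteins at 12 h were 279 bp apart. With 1 library per condition these ratios have no error, and 1 peak cannot show whether the difference is larger than that between repeat libraries.

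**Figure D3:**
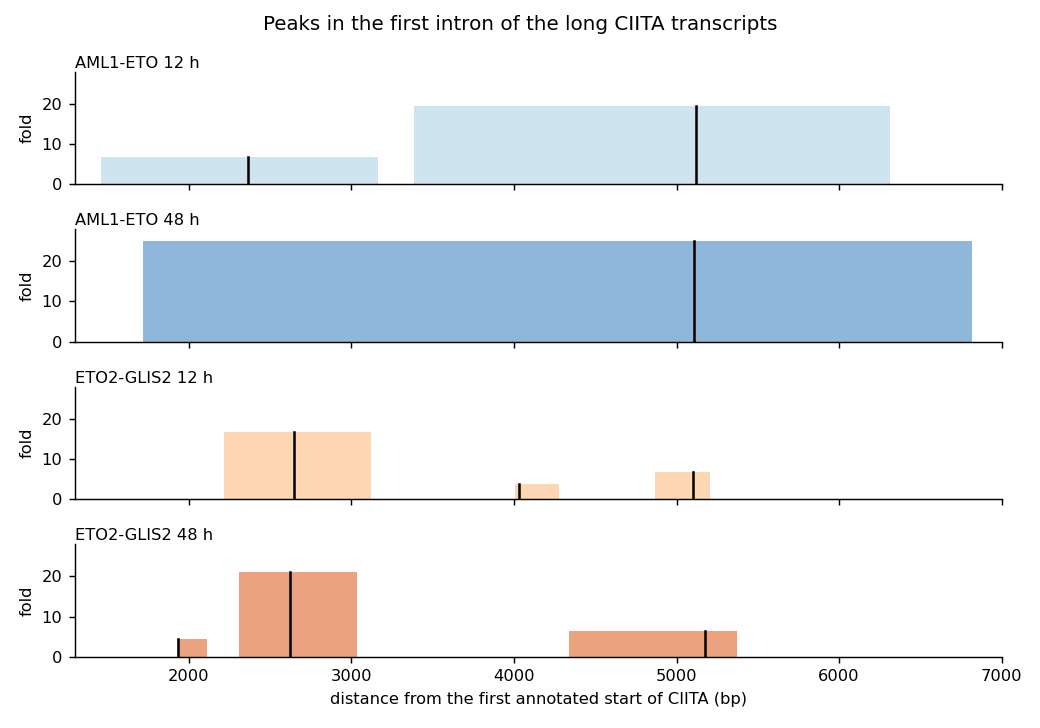
Peaks in the intron downstream of the first annotated CIITA start in the 4 lists, by distance from that start in bp. Each bar spans a peak, its height is the fold enrichment and the black line marks the summit. The tallest AML1-ETO bars have their summits close to each other on the right, and the tallest ETO2-GLIS2 bars have theirs on the left.

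The sequences above show what lay under these summits. At the upstream site, TGTGGT began 2 bases after the ETO2-GLIS2 summit at 48 h and 19 bases before that at 12 h. At the downstream site, CAGCTG spanned the AML1-ETO summit at 48 h, from 1 base before to 4 bases after it, and ended 5 bases before that at 12 h. A reversed TGTGGT began 53 bases before the AML1-ETO summit at 48 h. The same matches lay by the downstream ETO2-GLIS2 summit at 12 h, with CAGCTG beginning 6 bases after it and the reversed TGTGGT 46 bases before it. TGTGGT also lay within the 200 bp around the upstream AML1-ETO summit at 12 h. In whole lists at 48 h, 13.7% of AML1-ETO summits had CAGCTG and 16.7% of ETO2-GLIS2 summits had TGTGGT within such 200 bp. In neither printed window was TGGGGGG, the core of the GLIS motif, matched. These are matches of short letters and not measured binding sites.

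The promoter of the canonical CIITA transcript was bound by AML1-ETO at both times. At the canonical start AML1-ETO had a peak at 12 h with its summit 92 bp after the start (863 bp wide, fold 4.25, rank 35612, 50.3%). At 48 h the peak was 1694 bp wide, and its summit lay 83 bp before the start (fold 7.53, rank 18210, 17.2%). A further AML1-ETO peak at 48 h lay 512 bp before the next start downstream (fold 4.77, rank 32276, 30.5%). The most upstream CIITA starts had no AML1-ETO summit within 1 kb, the nearest being 2328 bp after them at 12 h and 1859 bp before them at 48 h. ETO2-GLIS2 had no peak at the canonical start or the next one, and its nearest peaks ended or began 5774 bp and 5612 bp away from the canonical start at 12 h and 48 h. The single ETO2-GLIS2 promoter peak counted for CIITA at 48 h (summit chr16:11035131, rank 24740, 82.2%) lay near the start of a short transcript at the 3′ end, and the nearest coding start was that of DEXI.

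Some further AML1-ETO sites inside the gene were not shared with ETO2-GLIS2. An intronic peak 10.0 kb after the canonical start had a fold of 13.1 at 12 h (rank 7550, 10.7%) and of 8.22 at 48 h (rank 13317, 12.6%). A peak over an exon 30.4 kb after the start widened from 1980 bp at 12 h to 3751 bp at 48 h, with a fold of 10.6 (rank 9937, 14.0%) and 20.6 (rank 5860, 5.54%). Near the end of the canonical transcript, about 59.5 to 60.1 kb after its start, all 4 lists had a peak. At 48 h it ranked 14.4% for AML1-ETO (rank 15208) and 37.8% for ETO2-GLIS2 (rank 11374), in lists of different length.

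The strongest peaks assigned to CIITA at 48 h belonged by position to its neighbours. ETO2-GLIS2 had its best CIITA peak over the start of DEXI at both times, with the summit 29 bp after that start, 6037 bp past the end of the canonical CIITA transcript but inside the gene as annotated through longer transcripts. This peak, and not the intron site, was the strongest ETO2-GLIS2 peak in the CIITA gene body. It had a fold of 21.7 at 12 h (rank 2750, 9.71%) and 32.3 at 48 h (rank 1789, 5.94%). AML1-ETO at 48 h had a peak of 5139 bp over the starts of DEXI and CLEC16A, with its summit 26 bp after the CLEC16A start (fold 25.8, rank 4060, 3.84%). At 12 h AML1-ETO had a peak at each of these starts, the one at CLEC16A being the stronger (fold 18.5, rank 4433, 6.26%, against fold 8.20, rank 13639, 19.3% at DEXI). Past the end of the canonical transcript lay 4 and 11 AML1-ETO summits and 3 and 4 ETO2-GLIS2 summits at 12 h and 48 h. Some of these were nearest to a start of DEXI or CLEC16A and others to a CIITA start.

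CD74, the invariant chain (chr5:149781200-149792532, minus strand, ENSG00000019582), was the member with summits closest to its canonical start. ETO2-GLIS2 bound it at both times, with the summit 6 bp after the canonical start at 12 h (814 bp wide, fold 9.49, rank 7438, 26.3%) and 18 bp before it at 48 h (503 bp wide, fold 13.8, rank 5354, 17.8%). AML1-ETO had no peak at CD74 at 12 h, and its nearest peak was 29865 bp from the start. At 48 h it had a peak of 517 bp with the summit 18 bp after the start (fold 5.27, rank 27998, 26.5%), which overlapped that of ETO2-GLIS2. The summits of these 3 peaks fell within 36 bp, to one side of the reversed ATTGG match that lies 53 to 49 bases before the start. A weak second peak was present at 48 h for each protein, at rank 65.98% for ETO2-GLIS2 and 83.96% for AML1-ETO.

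The 6 peptide-presenting chains, HLA-DRA, HLA-DRB1, HLA-DPA1, HLA-DPB1, HLA-DQA1 and HLA-DQB1, were almost free of peaks. None of the 6 had a promoter peak in any list. The HLA-DP pair had 1 ETO2-GLIS2 peak at 12 h (chr6:33050663-33050862, in an intron of HLA-DPB1), 200 bp wide with a fold of 2.62 and rank 26656 (94.1%). It overlapped no peak of ETO2-GLIS2 at 48 h or of AML1-ETO at 12 h.

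The DR and DQ genes lay in a single stretch without any peak in each list. It was 551.331 kb long for AML1-ETO at 12 h (chr6:32213056-32764386), 592.206 kb at 48 h (chr6:32172346-32764551), 559.644 kb for ETO2-GLIS2 at 12 h (chr6:32202939-32762582) and 640.443 kb at 48 h (chr6:32165693-32806135). The nearest peak to the HLA-DRA start was 195 kb, 235 kb, 205 kb and 242 kb away in the same order of lists. Stretches of this length without a peak and without unknown bases were not rare, with 833, 745, 929 and 780 at least as long in the 4 lists. They usually held few genes, with a median of 1, 1, 2 and 3 protein-coding genes, whereas this one held 9, 9, 9 and 10. Only 43, 34, 74 and 66 of them held at least as many. Both flanks were bound: in 1300 kb around HLA-DRA, AML1-ETO had 22 peaks before and 47 after the stretch at 12 h and 52 and 80 at 48 h, and ETO2-GLIS2 had 13 and 34 at 12 h and 20 and 36 at 48 h.

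**Figure D4:**
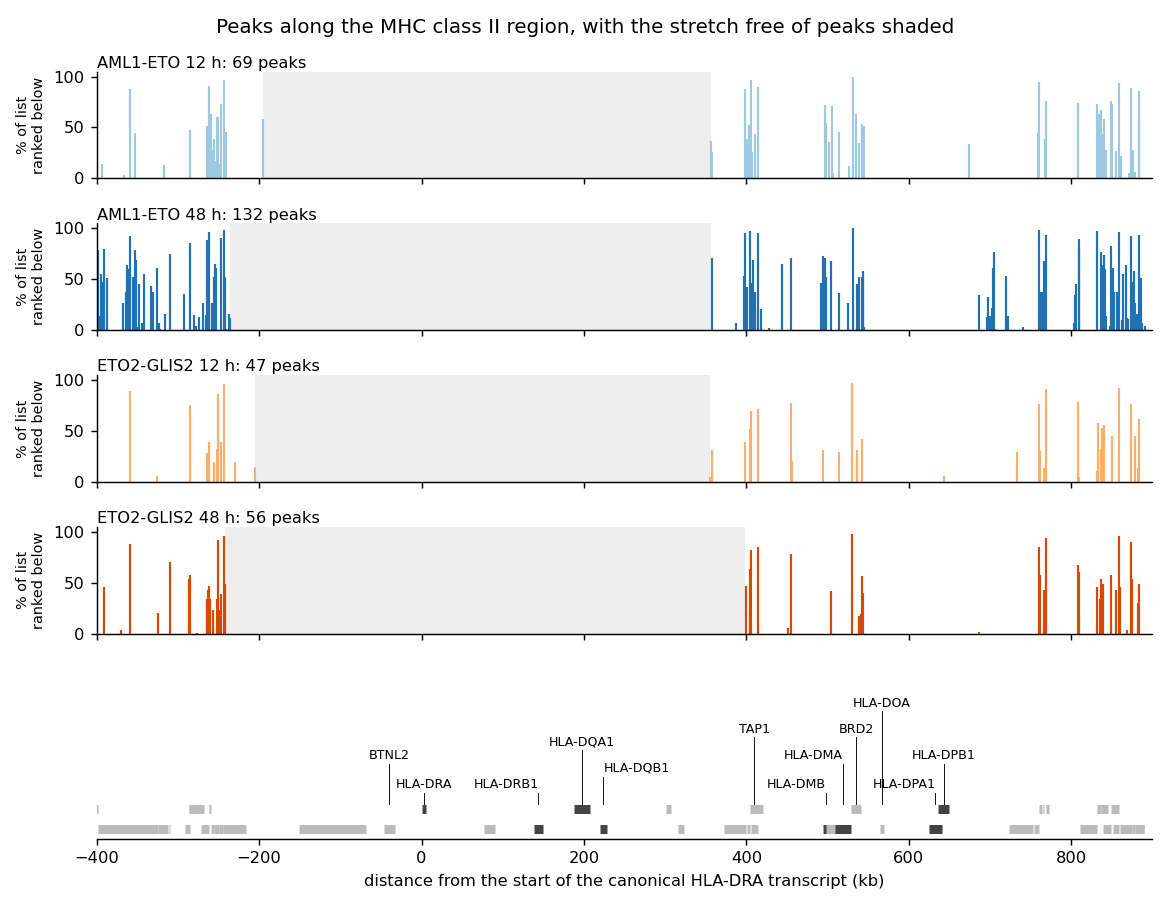
Peaks along the class II region in the 4 lists, by distance from the start of the canonical HLA-DRA transcript in kb. The height of each line is the percent of the list ranked below that peak, the shaded band is the stretch without a peak that holds the DR and DQ genes, and the bars at the bottom are protein-coding genes, with members in dark. Peaks are dense on both sides of the band and the tall line above the gene BRD2 in each list is the strongest peak given for HLA-DMA.

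DR and DQ genes have close paralogs and differ much between haplotypes, so reads from them can align to several places or poorly. How reads at several places were handled is not given in the sources used here, and the part of alignment in the absence of peaks was not tested. The stretch also held TSBP1 and BTNL2, named after their values were seen, which are no class II genes.

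The X and Y boxes of the member promoters were searched in 250 bases before to 50 bases after each start. The X box was searched as CNTNGNNAC and, after any 3 bases, TG, and the Y box as ATTGG starting 10 to 30 bases further on the same strand. The pair was found in 1 of 10 member promoters, that of HLA-DRA, with 23 bases between the boxes. A pair with other letters, spacing or strand would be missed, so the count does not show that the other members lack these boxes. Of all 20163 promoters, 17 (0.0843%) held such a pair at the start of the gene and 21 (0.104%) at the start of the canonical transcript. The X box alone matched in 2 of 10 members, beside 2.51% of all promoters. ATTGG on either strand matched in 9 of 10 members at the gene start and in 8 of 10 at the canonical start, beside 35.8% and 35.9%. Of the promoters with ATTGG at the canonical start, the one with a summit within 100 bp of that start was that of CD74.

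HLA-DMA and HLA-DMB encode the chains of HLA-DM, which exchanges peptides in the endosome. HLA-DMA (chr6:32916390-32936871, minus strand, ENSG00000204257) had 13, 14, 5 and 6 peaks in the AML1-ETO 12 h and 48 h and the ETO2-GLIS2 12 h and 48 h lists. Its strongest peak lay at BRD2, which encodes a bromodomain protein and starts from the opposite strand beside the most upstream HLA-DMA transcript, 16.3 kb from the canonical HLA-DMA start in the ETO2-GLIS2 lists. For AML1-ETO this peak was 7807 bp wide at 12 h (fold 49.0, rank 505, 0.713%) and 9895 bp at 48 h (fold 75.5, rank 106, 0.100%). For ETO2-GLIS2 it was 5693 bp wide at 12 h (fold 40.9, rank 868, 3.06%) and 5430 bp at 48 h (fold 59.5, rank 673, 2.24%).

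The summits at BRD2 differed between the fusion proteins and not between times. They were 12 bp apart in the AML1-ETO lists and 10 bp apart in the ETO2-GLIS2 lists, and the summits of the fusion proteins at 48 h lay 2310 bp from each other. The ETO2-GLIS2 summit was 32 bp after the nearest BRD2 start at 48 h, and that of AML1-ETO was 556 bp before the nearest one, a start of another BRD2 transcript. At the canonical HLA-DMA start itself, a peak was present at 12 h alone. AML1-ETO had it 296 bp before the start (214 bp wide, fold 3.82, rank 38488, 54.3%) and ETO2-GLIS2 285 bp before it (497 bp wide, fold 3.56, rank 20088, 70.9%), and they overlapped. At 48 h the nearest peak was 1422 bp from the canonical start for AML1-ETO and 8387 bp for ETO2-GLIS2.

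HLA-DMB (chr6:32902406-32908805, minus strand, ENSG00000242574) had 6, 6, 2 and 1 peaks, and the strongest ranked no better than 27.2% of its list. AML1-ETO had a pair of peaks in the gene body at both times, near starts of short transcripts, with folds of 6.08 and 4.56 at 12 h and of 4.91 and 3.55 at 48 h. At the canonical start AML1-ETO had a peak at 12 h, 563 bp before it (fold 3.76, rank 45637, 64.4%), and none at 48 h. ETO2-GLIS2 had no peak in the gene body. Between HLA-DMB and HLA-DMA, a region near chr6:32912215-32912487 was bound by AML1-ETO at both times and by ETO2-GLIS2 at 48 h, at rank 58.5% of the ETO2-GLIS2 list.

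As a group, the assigned peaks resembled the whole lists in strength and width. Their median rank was 50.3% and 47.9% of the AML1-ETO lists at 12 h and 48 h, and 51.6% and 43.8% of the ETO2-GLIS2 lists. Their median width was 393 and 432 bp for AML1-ETO, beside 360 and 415 bp in the whole lists, and 322.5 and 420 bp for ETO2-GLIS2, beside 382 and 399 bp. The widest assigned peak in each list was that at BRD2. Peaks were denser than in the whole genome, with 7.86 and 13.03 per 100 kb for AML1-ETO beside 2.48 and 3.70, and 2.90 and 3.10 for ETO2-GLIS2 beside 0.991 and 1.05. The windows surround genes and the genome also holds stretches without genes, so these densities are not like for like. The density came from CIITA (21.4, 40.2, 5.99 and 5.99 per 100 kb) and the HLA-DM locus. The median member had 0 AML1-ETO peaks at either time, beside 3 and 5 for the median protein-coding gene. For ETO2-GLIS2 it had 1 at 12 h and 0 at 48 h, beside 1 at either time.

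To compare the fusion proteins, the share of assigned peaks that overlapped a peak of the other fusion protein at the same time was determined. For ETO2-GLIS2, 8 of 14 peaks were shared at 12 h (57.1%, 28.9 to 82.3) and 11 of 15 at 48 h (73.3%, 44.9 to 92.2), beside 74.5% and 83.4% of the whole lists. For AML1-ETO, 8 of 38 were shared at 12 h (21.1%, 9.55 to 37.3) and 8 of 63 at 48 h (12.7%, 5.65 to 23.5), beside 26.2% and 17.8%. The share of the whole list lay inside the interval in all 4 cases. The intervals are wide, so this does not show that the shares were alike. At CIITA all 7 ETO2-GLIS2 peaks at 48 h overlapped AML1-ETO peaks (100%, 59.04 to 100), and 4 of the 47 AML1-ETO peaks overlapped ETO2-GLIS2 peaks (8.51%, 2.37 to 20.4).

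Between 12 h and 48 h, which are also different libraries, 30 of 38 AML1-ETO peaks at 12 h were found again at 48 h (78.9%, 62.7 to 90.4, beside 73.9% of the whole list). Of the 63 at 48 h, 25 had been present at 12 h (39.7%, 27.6 to 52.8, beside 36.8%). For ETO2-GLIS2, 7 of 14 peaks at 12 h were found again (50%, 23.04 to 76.96, beside 60.6%), and 7 of 15 at 48 h had been present at 12 h (46.7%, 21.3 to 73.4, beside 54.6%). CIITA held 47 of the 63 AML1-ETO peaks at 48 h, so most of the added ones were there too. Of these 47, 17 had been present at 12 h (36.2%, 22.7 to 51.5), beside the same 36.8% of the whole list.

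The DNA motifs of the fusion proteins were counted in 200 bp around the summits. A Runt motif (TGTGGT or TGCGGT on either strand) was present at 7 of 38 assigned AML1-ETO peaks at 12 h (18.4%, 7.74 to 34.3) and 11 of 63 at 48 h (17.5%, 9.05 to 29.1), beside 26.7% and 24.9% of the whole lists. TGGGGGG was present at 0 of 14 ETO2-GLIS2 peaks at 12 h, which allows a share of up to 23.2% by the same interval, and at 1 of 15 at 48 h (6.67%, 0.169 to 31.9), beside 7.72% and 7.89%. CAGCTG was present at 3 of 14 and 4 of 15 ETO2-GLIS2 peaks (21.4%, 4.66 to 50.8, and 26.7%, 7.79 to 55.1), beside 16.3% and 16.8%. The intervals held the share of the whole list in these cases.

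Other genes of the class II pathway had promoter peaks, whereas the presenting chains had none. Of the 32 listed genes beyond the members, 22 and 23 had a promoter peak of AML1-ETO at 12 h and 48 h, beside 54% and 59.8% of all protein-coding genes, and 19 and 18 one of ETO2-GLIS2, beside 42.8% and 45.7%. No test was made of these shares. The factors that bind the X and Y boxes had promoter peaks at 7 of 7 genes for AML1-ETO at both times, and at 6 and 5 of 7 for ETO2-GLIS2. The genes that carry interferon signals to CIITA had them at 7 of 7 in every list. The 5 other class II chain genes on the list had 0 promoter peaks in every list.

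Among the box-binding factors, NFYC, a subunit of NF-Y, had the strongest promoter peak of ETO2-GLIS2, with a fold of 119 at 12 h (rank 74, 0.261%) and 162 at 48 h (rank 32, 0.106%), and AML1-ETO had folds of 5.38 (rank 16018, 22.6%) and 18.3 (rank 6830, 6.46%) there. CREB1, which binds the X2 part of the X box, was the strongest for AML1-ETO, with a fold of 44.3 at 48 h (rank 976, 0.923%) against 14.7 for ETO2-GLIS2 (rank 4955, 16.5%). At 48 h NFYA ranked 2.93% of the AML1-ETO list (rank 3104) and 29.8% of the ETO2-GLIS2 list (rank 8962). NFYB ranked 10.1% (rank 10672) and 44.5% (rank 13403). The AML1-ETO list is the longer, so percents of the lists are not like for like. Of the RFX complex, RFXANK ranked 11.3% and 25.3%, but by rank the order was the reverse (11915 for AML1-ETO and 7617 for ETO2-GLIS2). RFX5 and RFXAP had AML1-ETO promoter peaks at 48 h (11.4% and 7.004%) and no ETO2-GLIS2 promoter peak at that time. RFX5 had a weak one of ETO2-GLIS2 at 12 h (rank 52.9%).

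In interferon signalling, IFNGR2, a chain of the interferon-gamma receptor, had a promoter peak of AML1-ETO at 48 h (fold 53.4, rank 714, 0.675%), ahead of the kinase JAK1 (rank 2329, 2.202%). For ETO2-GLIS2 at 48 h IFNGR2 came first (fold 98.7, rank 207, 0.688%), followed by JAK1 (rank 626, 2.08%) and the transcription factor IRF1 (fold 40.9, rank 1279, 4.25%). IRF1 ranked 10.2% in the AML1-ETO list at the same time.

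MHC class I genes gave a further comparison. Of 16 listed genes, 13 and 14 had a promoter peak of AML1-ETO and 10 and 13 one of ETO2-GLIS2 at 12 h and 48 h. The class I chain genes had one at 5 of 7 and 5 of 7 for AML1-ETO, beside 54% and 59.8% of all protein-coding genes. For ETO2-GLIS2 they had one at 2 of 7 and 4 of 7, beside 42.8% and 45.7%. The HLA genes among the class I chain genes are close paralogs too, so the peaks of these HLA genes carry the same uncertainty of alignment. The best ranked at 48 h were PSMB9 and PSMB8, immunoproteasome genes that shared an AML1-ETO peak of 5227 bp (fold 34.9, rank 2296, 2.17%), and CALR (rank 3410, 3.22%) for AML1-ETO. For ETO2-GLIS2 they were CALR (rank 1834, 6.09%), which encodes the chaperone calreticulin, TAPBP, which encodes tapasin (rank 2984, 9.91%), and PSMB9 (rank 4412, 14.7%). PSMB8 and PSMB9 lie in the class II region, beyond the stretch that had no peak.

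**Figure D5:**
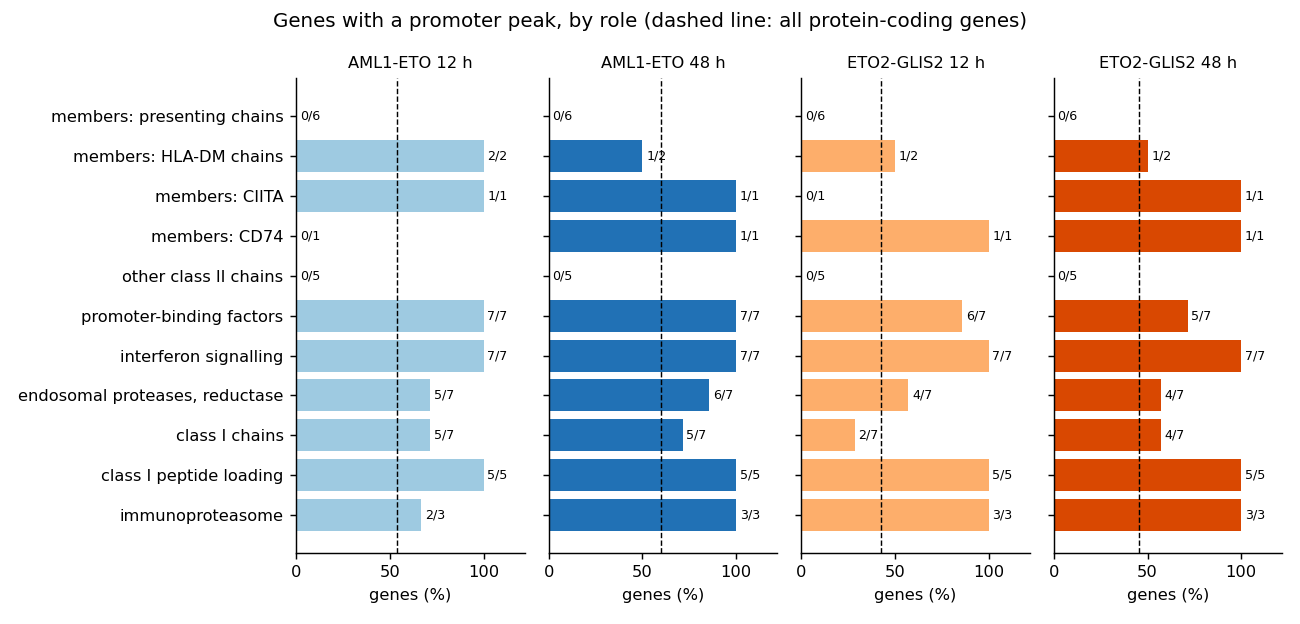
Percent of genes with a promoter peak in each of the 4 lists, for the members and for other class II and class I genes by role, with the number of genes at each bar and a dashed line at the percent of all protein-coding genes. Presenting chains (0 of 6) and other class II chains (0 of 5) have no bar in any panel, and interferon signalling genes have 7 of 7 in each.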

How the data were processed

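ChIP-seq peak lists of HA-tagged fusion proteins expressed in the U937 line were analysed, 1 list per fusion protein and time. Groups came from sample titles, since the treatment text names 48 h for every sample. Per the labels and methods, the authors aligned reads to hg19 with Bowtie2 2.2.9, handled alignments with SAMtools 1.7 and called peaks per ChIP library with MACS2 2.1.1.20160309. The settings of MACS2, the removal of duplicate reads and the handling of reads with several alignments are not given in the sources used here. The deposited lists give each peak's fold enrichment (a linear ratio), its −log10 p and −log10 q, and a score, which equals 10 times that −log10 q without its decimals. The deposited summit column is a distance in bp from the peak start. The smallest −log10 q was 1.30 to 1.31.

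From these lists, peaks were ranked by −log10 q and assigned by summit to genes of GENCODE 44 lifted to GRCh37, on whose assembly all sequences and motif matches were read. Overlap needed 1 bp. Shares carry 95% Clopper-Pearson intervals (SciPy 1.17.1). No test was made. On simulated data, the number of planted peaks was found in 387 of 387 gene windows. The search for pairs of X and Y boxes was right in 500 of 500 simulated sequences, some with a planted pair and some without. This did not test the counting of promoter peaks. For the ETO2-GLIS2 list at 48 h, the number of overlapping peaks differed from that of bedtools by 0 of 30096. The members and gene lists were chosen with earlier results of these data known. Named were all members, the box-binding factors, and for each fusion protein at 48 h the 3 other class II and the 3 class I genes with the best ranked promoter peak; 1 of these genes is not reported here. Other genes were named as the nearest start of an assigned peak.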

Additional observations from a re-analysis of the deposited data

Results flagged for a closer look

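Between 12 h and 48 h the number of the 10 genes with a peak moved in opposite directions for the fusion proteins, by 1 for AML1-ETO, through CD74, and by -2 for ETO2-GLIS2, through the weak peak at the HLA-DP pair. This opposite movement was lost when weaker peaks, with a −log10 q under 5, were left out, so that both went from 3 to 4 genes, and with the same number of strongest peaks, where AML1-ETO had 3 at each time.

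The share of assigned peaks that overlapped the other fusion protein also moved in opposite directions, by -8.35 percentage points for AML1-ETO and by 16.2 percentage points for ETO2-GLIS2, while the AML1-ETO list grew from 70833 to 105769 peaks. The whole lists moved the same way, from 26.2% to 17.8% and from 74.5% to 83.4%. With the same number of strongest peaks the direction for AML1-ETO turned, from 28.6% to 50%, and when peaks with a −log10 q under 5 were left out it was 29.4% and 29.2%. Neither difference was tested, since there was 1 library per condition.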

How the results depend on the processing

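Of 161 values recomputed under other settings, 117 stayed within 1.5 times the count or within the interval of the share or median, and 44 moved. Among the latter, values are in the order AML1-ETO 12 h, AML1-ETO 48 h, ETO2-GLIS2 12 h and ETO2-GLIS2 48 h where 4 are given. Assigned peaks fell to 17, 24, 8 and 9 with a −log10 q of at least 5, to 8, 9, 6 and 4 with at least 10, and to 25, 37, 9 and 7 in gene bodies alone. With the same number of strongest peaks AML1-ETO had 14 and 12, with peaks within 1 kb joined AML1-ETO at 48 h had 32, and with a window of 50 kb ETO2-GLIS2 at 48 h had 24. Genes with a peak were 6 for AML1-ETO at 12 h with 50 kb, 2 for AML1-ETO at 48 h with a −log10 q of at least 10, 3 for ETO2-GLIS2 at 12 h with at least 5 or 10, and 2 for ETO2-GLIS2 at 48 h in gene bodies. Genes with a promoter peak were 1 for AML1-ETO at 12 h with a −log10 q of at least 5 or the same number of peaks, 0 with at least 10, and 1 with the start of the gene alone. At 48 h they were 1 with at least 10 and with the start of the gene alone. For ETO2-GLIS2 they were 6 at 12 h with promoters of 3 kb and 1 at 48 h with the canonical start alone, an alternative chosen after seeing the data. The shared percentage of AML1-ETO at 48 h became 29.2 with 5 as the minimum −log10 q of both lists, 4.76 with an overlap of 50% of the peak and 50 with the same number of peaks, and that of ETO2-GLIS2 at 48 h 100 in gene bodies and 26.7 with summits within 200 bp. The percentage found at the other time became 52.6 for AML1-ETO at 12 h with summits within 200 bp, 23.8 at 48 h with an overlap of 50%, and 87.5 and 77.8 for ETO2-GLIS2 with that same minimum. Median widths became 769 and 774.5 bp for AML1-ETO with a −log10 q of at least 5, and 788.5, 1125 and, for ETO2-GLIS2 at 48 h, 1030 bp with peaks joined. The Runt motif matched in 0 member promoters at the gene start and 1 at the canonical start, also chosen after seeing the data. Stricter lists hold fewer peaks by construction. The cause of the other changes was not tested. No setting gave HLA-DRA, HLA-DRB1, HLA-DQA1 or HLA-DQB1 a promoter peak, and none could. The nearest peak to their canonical starts in any list was 128 kb away, far beyond the widest promoter of 3 kb. HLA-DPA1 and HLA-DPB1 were among the 6 genes with a promoter peak of ETO2-GLIS2 at 12 h with promoters of 3 kb. No paired analysis was possible because each group holds 1 sample and no test was made.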
